A study of Arabidopsis thaliana with 4 samples.

Results

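A set of 9 genes of Arabidopsis thaliana that report on, or control, signalling from stressed mitochondria to the nucleus were followed in a mutant of TRIC1 and TRIC2, members of a protein family that includes import channels of mitochondria and plastids. They are UPOX (AT2G21640), AT12CYS-2 (AT5G09570), OM66 (AT3G50930), HSP23.5 (AT5G51440), HSP23.6 (AT4G25200), UGT74E2 (AT1G05680), NAC013 (AT1G32870), NAC017 (AT1G34190) and the transporter gene AT2G04050. They were taken by locus identifier, all 9 were found among the 34133 loci of both tables, and 9 were tested in rosettes and 8 in seedlings. The genes were picked with the ratios and q-values of these tables known, so their values are a description and no test of the group. The groups were rosette leaves of AtTric1&2 dko plants at 4 weeks, rosette leaves of WT(Col0) plants at 4 weeks, AtTric1&2 dko seedlings at 2 weeks and WT(Col0) seedlings at 2 weeks, called dko and WT here. The label names TRIC1 (AT3G49560) and TRIC2 (AT5G24650), and dko is read here as their double mutant. All plants grew at 22 °C with 16 h of light at an intensity that the labels give as 80 nmol quanta m-2 s-1. Seeds were sown on MS medium, and only plants for rosettes went on to soil, at day 5. RNA depleted of ribosomal RNA was sequenced, each group is stated to hold 3 replicates, and the authors deposited 1 pooled FPKM (a level corrected for transcript length and library size) per locus and group. Values therefore carry no standard deviation, the error is that in the q-value of the authors' Cuffdiff comparison, and the depth is unknown.

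Plant cells answer a block in mitochondrial respiration or protein import with a programme called mitochondrial retrograde signalling, in which nuclear genes for stress proteins are switched on. NAC017 and NAC013 are transcription factors held at the membrane of the endoplasmic reticulum; once released they move to the nucleus and bind a short palindrome-like DNA element, the mitochondrial dysfunction motif, in the promoters of stress genes. UPOX, AT12CYS-2, OM66, UGT74E2, HSP23.5 and the MATE (multidrug and toxic compound extrusion) gene AT2G04050 are widely used markers of this programme, and NAC013 is itself one of its targets.

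The motif letters in the promoters of the genes are shown because the motif is the known binding element of NAC013 and NAC017, and it was looked for in all 9 genes. Each promoter window ran from 250 bases before to 50 after the transcript start, in the RefSeq annotation of the TAIR10.1 build, and all 9 genes had one. The letters CTTG, any 5 bases, CA, any base and G were searched on both strands. A match was found in 7 of the 9 windows, against 587 of 27443 (2.14%) windows of all protein-coding genes. The motif was defined in earlier work on genes of this group, so its presence is a description. With only A or C allowed as the base before the last G, 7 of the 9 windows and 391 of all (1.42%) held it. The matches are given 5′ to 3′ on the strand of the gene, with the fixed letters in capitals, and they do not overlap each other.
UPOX: CTTGctctcCAAG
HSP23.5: CTTGgagacCACG
HSP23.6: CTTGggagcCACG
AT2G04050, first match: CTTGattccCAAG
AT2G04050, second match: CTTGgtcccCAAG
NAC017: CGTGtcagaCAAG
AT12CYS-2: CGTGacgggCAAG
UGT74E2: CTTGgtcgcCACG

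In TAIR10.1 coordinates the match of UPOX lies at chr2:9254327-9254339, that of HSP23.5 at chr5:20891053-20891065, that of HSP23.6 at chr4:12916880-12916892, that of NAC017 at chr1:12451295-12451307 and that of AT12CYS-2 at chr5:2970511-2970523, in genes on the plus strand. The matches of AT2G04050 lie at chr2:1339671-1339683 and chr2:1339612-1339624, and that of UGT74E2 at chr1:1704813-1704825, in genes on the minus strand. Counted from the transcript start, the matches of UPOX, HSP23.5, HSP23.6 and NAC017 began at -51, -110, -46 and -110, and those of AT2G04050 at -215 and -156. The matches of AT12CYS-2 and UGT74E2 lay inside the transcript annotated in RefSeq, each from base 14 to base 26. In the authors' deposited spans AT12CYS-2 starts at 2970669 and UGT74E2, on the minus strand, ends at 1704691. Both matches lie upstream of those starts, so which matches fall before the start depends on the annotation. In UPOX and at both places of AT2G04050 the fixed letters match on both strands. Those of NAC017 and AT12CYS-2 match on the strand opposite to the gene. No match was found within these windows of OM66 and NAC013. Among 18 other retrograde response genes 6 windows held a match, or 2 without the 50 bases after the start, and the second match of AOX1A, the stress-inducible alternative oxidase, had the same 13 letters as that of UPOX.

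The 250 bases before the start are printed for the 3 genes whose windows hold a match upstream of the start, overlap no other gene and whose transcript was past the q threshold in rosettes. Capitals mark the whole match. The UPOX window lies at chr2:9254128-9254377 on the plus strand, that of HSP23.6 at chr4:12916676-12916925 on the plus strand and that of AT2G04050 at chr2:1339469-1339718 on the minus strand (RefSeq, TAIR10.1).
UPOX: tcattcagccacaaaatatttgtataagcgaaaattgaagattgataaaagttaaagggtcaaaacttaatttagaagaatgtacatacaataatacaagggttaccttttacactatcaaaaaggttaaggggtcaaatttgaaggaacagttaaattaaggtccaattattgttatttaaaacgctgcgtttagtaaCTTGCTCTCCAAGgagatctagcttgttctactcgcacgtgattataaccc
HSP23.6: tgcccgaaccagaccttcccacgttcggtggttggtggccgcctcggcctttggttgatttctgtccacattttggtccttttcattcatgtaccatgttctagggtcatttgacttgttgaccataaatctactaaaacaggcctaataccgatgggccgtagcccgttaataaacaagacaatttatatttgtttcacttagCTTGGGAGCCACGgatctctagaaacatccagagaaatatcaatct
AT2G04050: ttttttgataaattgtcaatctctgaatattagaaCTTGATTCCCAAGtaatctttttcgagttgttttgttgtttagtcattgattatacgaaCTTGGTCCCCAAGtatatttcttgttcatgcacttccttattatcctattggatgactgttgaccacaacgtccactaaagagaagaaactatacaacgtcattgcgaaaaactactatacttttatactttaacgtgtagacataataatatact

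Other elements were searched on both strands of the same windows. The G-box CACGTG was in 1 of the 9 windows, that of UPOX, against 7.68% of all windows. The heat shock element core GAANNTTC was in 2, those of HSP23.6 and AT12CYS-2, in both after the start, against 11.6% of all windows. The W-box core TTGAC was in 6 of the 9, against 50.5% of all windows. None of these letters overlapped a match of the mitochondrial dysfunction motif.

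**Figure D1:**
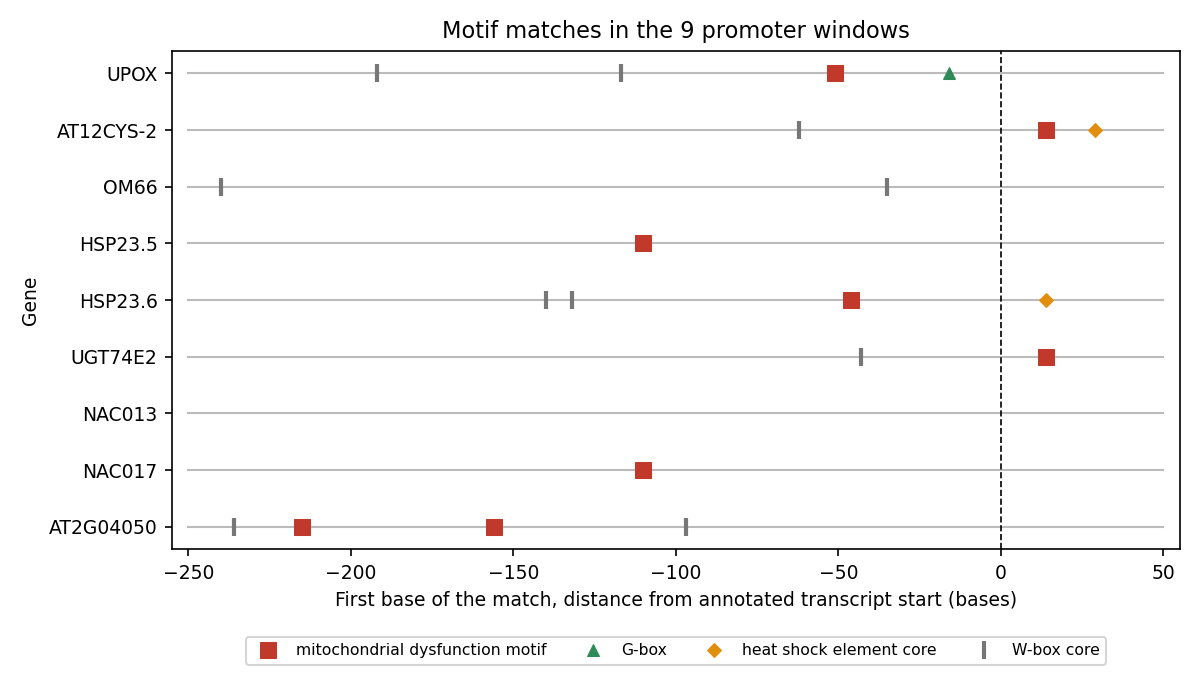
Places of 4 motifs in the promoter windows of the 9 genes, 1 row per gene, with the distance of the first base of the match from the annotated transcript start in bases on the x axis (dashed line: start). Squares, the mitochondrial dysfunction motif, lie in 7 rows, between -215 and 14, and are missing from the rows of OM66 and NAC013.

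The label of the mutant was checked on its targeted genes. TRIC1 stood at 10.7 FPKM in dko rosettes, against 34.7 FPKM in WT rosettes, and at 16.2 FPKM in dko seedlings, against 33.9 FPKM in WT seedlings. TRIC2 stood at 0.069 FPKM in dko rosettes, against 17.5 FPKM in WT rosettes, and at 0.366 FPKM in dko seedlings, against 17.7 FPKM in WT seedlings. For seedlings, both were lower at q = 0.000768 in the authors' deposited table. For rosettes, TRIC1 was lower at q = 0.000899 and TRIC2 had q = 0.146 in the authors' deposited table. Neither labels nor files give where the genes are disrupted, so it is not known which stretch of TRIC1 the remaining signal covers. Of 5 root markers 4 were listed at 0 in both rosette groups and the fifth, PIN2, was at 0.00614 FPKM in the dko and 0.0132 FPKM in WT, while their sum in seedlings was 1.57 FPKM in the dko and 1.40 FPKM in WT. All 5 were too low to be tested in seedlings too, the highest being 0.562 FPKM in WT. These markers therefore do not tell how much root the seedling samples held. The 4 leaf markers summed to 7660 FPKM in dko rosettes, against 16234 FPKM in WT rosettes, and to 14995 FPKM in dko seedlings, against 34761 FPKM in WT seedlings. Of these leaf markers 2 fell in rosettes and 3 in seedlings past q 0.05 in the authors' deposited tables. Over all tested loci 8.94% and 8.14% were called lower. The part of these markers in the results for the 9 genes was not tested. In such whole-tissue samples, fewer cells of a type and less RNA per cell cannot be told apart.

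UPOX, HSP23.5, NAC013 and AT2G04050 were higher in the dko in both tissues, HSP23.6 in rosettes and OM66 in seedlings, while NAC017, AT12CYS-2 and UGT74E2 passed the threshold of q 0.05 in neither. That is 5 of 9 tested genes higher and 0 lower in rosettes, where 16.8% of all 18338 tested loci were called in the authors' deposited table, 7.81% higher and 8.94% lower. It is 5 of 8 tested genes higher and 0 lower in seedlings, where 16.5% of all 19747 tested loci were called in the authors' deposited table, 8.40% higher and 8.14% lower. At an unadjusted p under 0.05 in the authors' deposited tables, 0 of the 9 genes were lower in either tissue. As the genes were chosen on these contrasts, nothing is read from those shares. HSP23.6 was tested in rosettes but not in seedlings. The smallest q the tables hold is 0.000899 in rosettes and 0.000768 in seedlings, which belong to the smallest p-value of 5e-05.

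**Figure D2:**
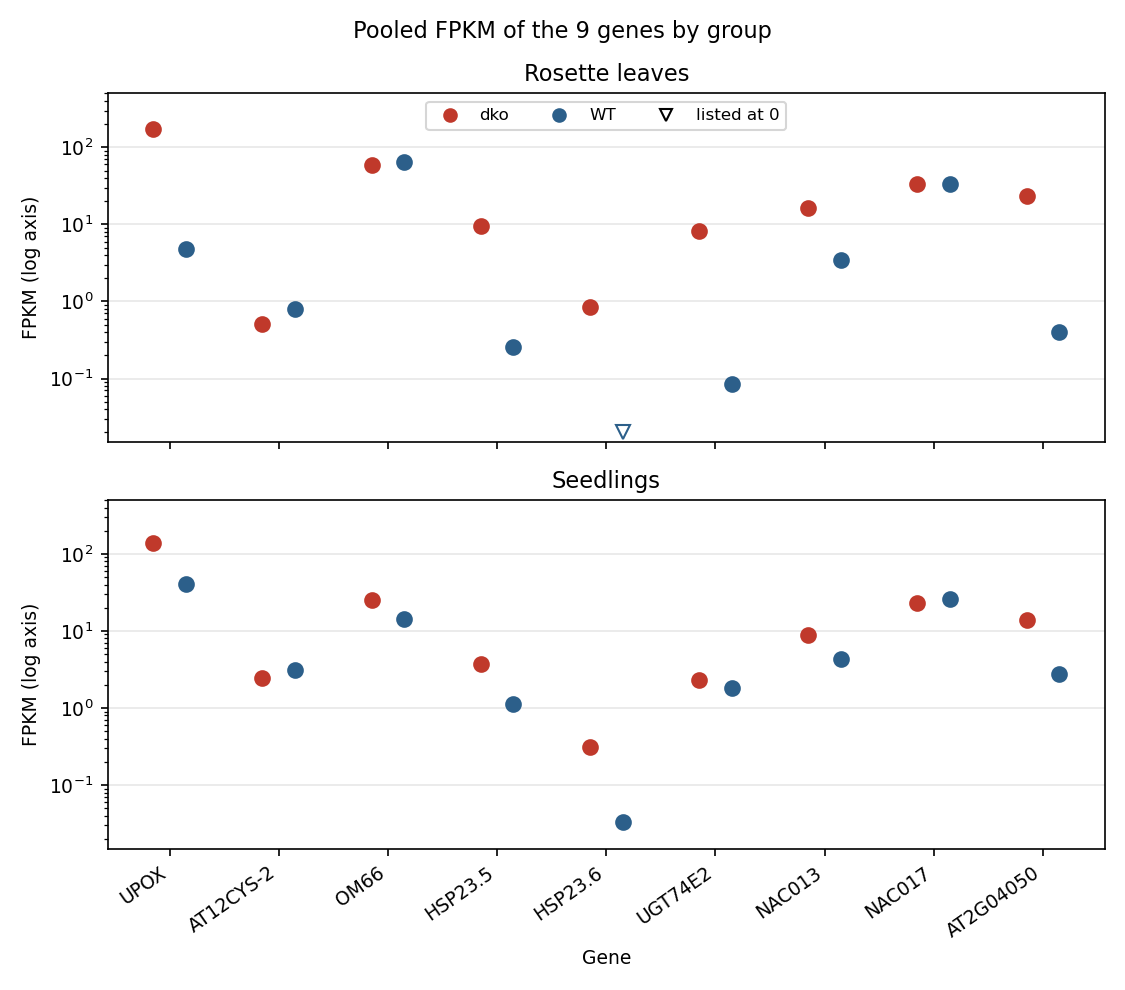
Pooled FPKM (log axis) of the 9 genes in dko (red, left of each pair) and WT (blue) for rosette leaves (top) and seedlings (bottom); 1 point is the authors' value over the stated 3 replicates, with no error bar. The open triangle marks HSP23.6, listed at 0 in WT rosettes. The red points of UPOX, HSP23.5, NAC013 and AT2G04050 lie above the blue ones in both panels, and the points of NAC017 lie nearly level (33.5 and 33.6 FPKM in rosettes).

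Among the markers that are mitochondrial proteins, UPOX, a small protein of unknown molecular function named for its rise under oxidative stress, had the highest level in the dko. It stood at 173 FPKM in dko rosettes, against 4.81 FPKM in WT rosettes (36.0-fold, log2 ratio 5.17, q = 0.000899 in the authors' deposited table). It stood at 138 FPKM in dko seedlings, against 41.0 FPKM in WT seedlings (3.37-fold, log2 ratio 1.75, q = 0.000768 in the authors' deposited table). UPOX was thus high in both dko groups, and WT rosettes held its lowest listed value. By level, 97.1% of tested loci lay below it in dko rosettes and 32.2% in WT rosettes, while in seedlings 96.0% lay below it in the dko and 86.1% in WT. The locus lies on chromosome 2 at 9254459 to 9255625 (TAIR10 coordinates of the tables, as for the spans of the other genes), on the plus strand with 3 exons.

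OM66, an AAA-type ATPase of the outer mitochondrial membrane that has been linked to salicylic acid and cell death, was called in seedlings only, and the difference between tissues was not tested. Its level was 58.3 FPKM in dko rosettes, against 64.5 FPKM in WT rosettes (log2 ratio -0.15, q = 0.777 in the authors' deposited table). In seedlings it rose to 25.0 FPKM in the dko, against 14.1 FPKM in WT (1.77-fold, log2 ratio 0.83, q = 0.000768 in the authors' deposited table). OM66 had the highest level of the 9 genes in WT rosettes, where UPOX was the third. The single-exon gene lies on chromosome 3 at 18929526 to 18931839, on the plus strand.

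AT12CYS-2, annotated as a Cox19-like protein of the CHCH family, was low in all 4 groups. It stood at 0.510 FPKM in dko rosettes, against 0.800 FPKM in WT rosettes (log2 ratio -0.65, q = 0.635 in the authors' deposited table). In seedlings the values were 2.45 FPKM in the dko and 3.10 FPKM in WT (log2 ratio -0.34, q = 0.587 in the authors' deposited table). AT12CYS-2 and NAC017 were the members of the set with a ratio below 0 in both tissues, and none of these ratios was past the threshold. The gene is on chromosome 5 at 2970669 to 2972181, on the plus strand with 5 exons.

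The mitochondrial small heat shock proteins, chaperones that bind unfolding proteins without ATP, were low in WT. HSP23.5 stood at 9.59 FPKM in dko rosettes, against 0.260 FPKM in WT rosettes (36.9-fold, log2 ratio 5.20, q = 0.00551 in the authors' deposited table). It stood at 3.72 FPKM in dko seedlings, against 1.14 FPKM in WT seedlings (3.25-fold, log2 ratio 1.70, q = 0.000768 in the authors' deposited table). The log2 ratio of HSP23.5 in rosettes was 3.07 with 1 FPKM added to both groups. HSP23.6 stood at 0.841 FPKM in dko rosettes and was listed at 0 in WT rosettes, with q = 0.000899 in the authors' deposited table, and no fold is given. In seedlings HSP23.6 was at 0.308 FPKM in the dko and 0.0334 FPKM in WT, which was not tested. HSP23.5 was therefore the more abundant of the pair, per length, in every group. Their annotated transcripts match over 432 aligned positions at 75.7% identity, with no identical stretch longer than 19 bases. HSP23.5 lies on chromosome 5 at 20891163 to 20892211 and HSP23.6 on chromosome 4 at 12917017 to 12918053, each on the plus strand with 2 exons.

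Of the markers outside mitochondria, AT2G04050, a transporter of the MATE efflux family, rose in both tissues. It stood at 23.2 FPKM in dko rosettes, against 0.403 FPKM in WT rosettes (57.7-fold, log2 ratio 5.85, q = 0.000899 in the authors' deposited table). It stood at 13.8 FPKM in dko seedlings, against 2.78 FPKM in WT seedlings (4.94-fold, log2 ratio 2.31, q = 0.000768 in the authors' deposited table). With 1 FPKM added to both groups the log2 ratio in rosettes was 4.11. By log2 ratio as deposited it took rank 12 of 18302 tested loci with a ratio in rosettes and rank 22 of 19718 in seedlings, against ranks 21 and 60 for UPOX and 20 and 69 for HSP23.5. It lies in a cluster of near relatives on chromosome 2, at 1337386 to 1339270 on the minus strand, with 6 exons. Its transcript is 90.3% identical to that of AT2G04070 over 1471 aligned positions, with a longest identical stretch of 99 bases, so reads could be shared and the split between copies is uncertain.

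UGT74E2, a glucosyltransferase that acts on the auxin precursor indole-3-butyric acid, had a large ratio in rosettes that was not past the threshold. It stood at 8.27 FPKM in dko rosettes, against 0.0861 FPKM in WT rosettes (96.0-fold, log2 ratio 6.59, p = 0.044 and q = 0.162 in the authors' deposited table). With 1 FPKM added to both groups the log2 ratio was 3.09. In seedlings it was at 2.28 FPKM in the dko and 1.79 FPKM in WT (log2 ratio 0.35, q = 0.388 in the authors' deposited table). The WT rosette level was below that of the other 3 groups. UGT74E2 lies on chromosome 1 at 1703092 to 1704691, on the minus strand with 2 exons. Its neighbour UGT74E1 has a transcript 89.5% identical over 1375 aligned positions, with identical stretches of up to 59 bases, so the split between them is uncertain too.

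The transcription factor pair gave unlike values, NAC013 being called in both tissues and NAC017 in neither. NAC013 stood at 16.2 FPKM in dko rosettes, against 3.48 FPKM in WT rosettes (4.67-fold, log2 ratio 2.22, q = 0.000899 in the authors' deposited table). It stood at 8.77 FPKM in dko seedlings, against 4.38 FPKM in WT seedlings (2.00-fold, log2 ratio 1.001, q = 0.000768 in the authors' deposited table). NAC017 stood at 33.5 FPKM in dko rosettes, against 33.6 FPKM in WT rosettes (log2 ratio -0.0040, q = 0.994 in the authors' deposited table). In seedlings NAC017 was at 22.9 FPKM in the dko and 25.7 FPKM in WT (log2 ratio -0.17, q = 0.418 in the authors' deposited table). NAC017 was thus more abundant per length than NAC013 in every group. NAC017 lies on chromosome 1 at 12451451 to 12454142, on the plus strand with 4 exons. NAC013 lies on chromosome 1 at 11911679 to 11914735, its annotated first transcript being on the plus strand with 3 exons. Its span in the tables includes AT1G32880, a gene on the opposite strand that overlaps its end. AT1G32880 was at 1.16 FPKM in dko rosettes and 0.291 FPKM in WT rosettes (q = 0.728 in the authors' deposited table). The sources do not state whether counting used strand.

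Set side by side, 6 of the 8 genes with a ratio in both tissues had the larger one in rosettes, against 53.1% of all 17862 such loci. OM66 and AT12CYS-2 were the exceptions, and NAC017 lay near 0 in both. Among the 1399 loci called higher in rosettes that share was 96.4%. As the genes were chosen on these contrasts, nothing is read from the count, and whether ratios differ between tissues was not tested. The tables were scaled separately, so levels across them are only set beside each other. For UPOX the dko values were 173 FPKM in rosettes and 138 FPKM in seedlings, while the WT values were 4.81 and 41.0 FPKM. For AT2G04050 the dko values were 23.2 and 13.8 FPKM and the WT values 0.403 and 2.78 FPKM. WT values of UPOX, AT12CYS-2, HSP23.5, UGT74E2 and AT2G04050 were 3.88 to 20.8 times as high in the seedling table as in the rosette table, while that of OM66 was 4.57 times as high in the rosette table. In the dko the order of the first 6 genes by level was the same in both tissues: UPOX, OM66, NAC017, AT2G04050, NAC013 and HSP23.5. No spread is at hand to say which neighbours in that order differ. In WT the order was OM66, NAC017, UPOX and NAC013 in rosettes, and UPOX, NAC017, OM66 and NAC013 in seedlings.

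**Figure D3:**
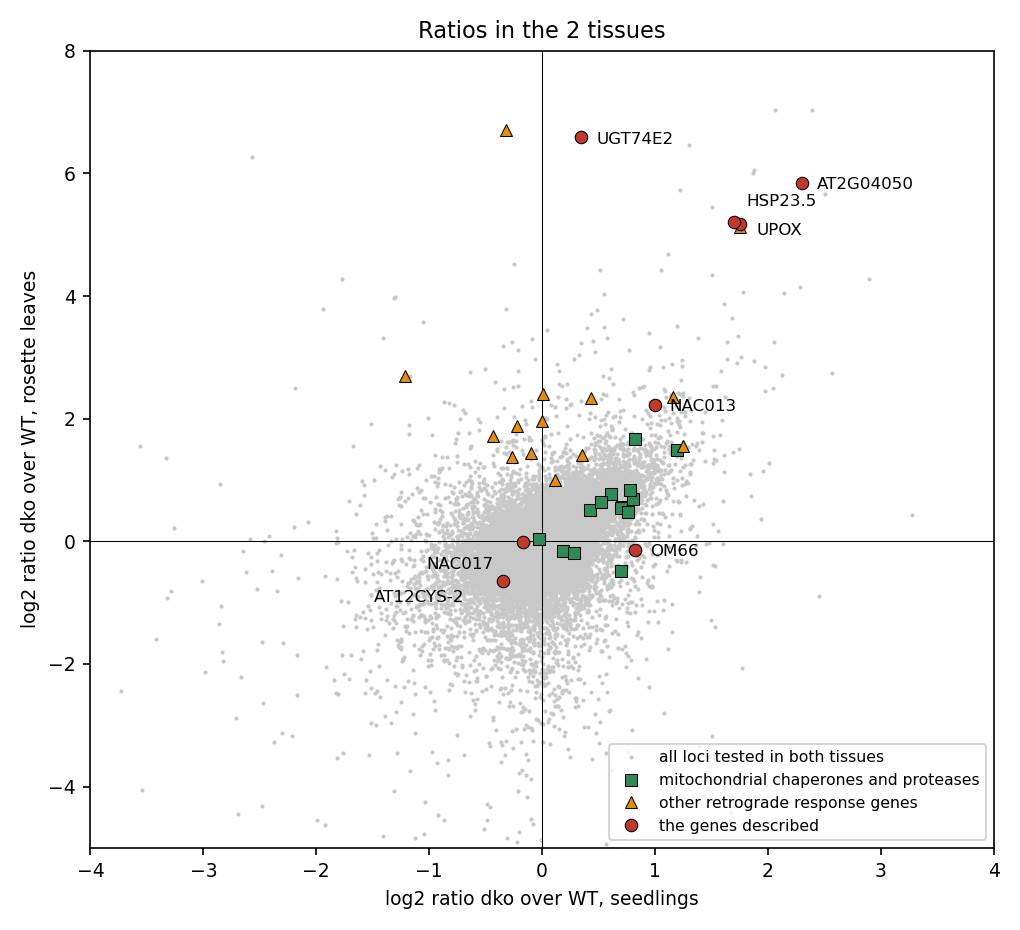
Log2 ratio of dko over WT in seedlings (x axis) and rosette leaves (y axis) for 17862 loci with a test and a ratio in both tissues (grey; 25 lie outside the axes), with 8 of the 9 genes in red and 2 other gene lists in orange and green. UPOX, HSP23.5 and AT2G04050 lie high in both tissues (5.17 to 5.85 in rosettes), UGT74E2 is high in rosettes (6.59) and 0.35 in seedlings, and NAC017 lies near the origin. HSP23.6 has no ratio in rosettes.

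Other genes reported to respond to mitochondrial stress were compared next, from a list drawn up from general knowledge of the field and with earlier results for 4 of its members known. In rosettes 16 of 16 tested genes of 18 rose and 0 fell, with a median log2 ratio of 2.05, against 7.81% called higher and a median of 0.012 over all tested loci of the authors' deposited table. Without those 4 genes it was 12 of 12 tested. That is no independent check, as the whole list was chosen with earlier results of these data known. GSTU8, a glutathione transferase, had a log2 ratio of 6.72, the ATPase gene AT2G18193 5.13, GSTU24 2.70 and the auxin transporter gene ABCB4 2.41, all at q = 0.000899 in the authors' deposited table. GSTU8, AT2G18193 and GSTU24 stood at only 0.444, 0.705 and 0.647 FPKM in WT rosettes. With 1 FPKM added to both groups their log2 ratios were 5.04, 3.91 and 1.66. AT2G04070, whose reads could be shared with AT2G04050, is among the 16. AT2G04070 and AT2G18193 are counted again in the lists of relatives below. In seedlings 4 of 15 tested genes rose and 2 fell, with a median of 0.0096, against 8.40% called higher, 8.14% called lower and a median of 0.010 over all tested loci of the authors' deposited table. Those that rose were AT2G18193 (log2 ratio 1.76), the cytokinin response factor gene CRF6 (1.25), the oxidoreductase-like gene AT1G24095 (1.16) and AOX1A (0.36), the last with q = 0.0411 in the authors' deposited table. GSTU24 and SOT12, a sulfotransferase, fell by 1.21 and 0.44 on the log2 scale (q = 0.000768 and 0.0173 in the authors' deposited table). All 14 genes of the list with a ratio in both tissues had the larger one in rosettes, against 53.1% of all 17862 such loci. Among the 1399 loci called higher in rosettes that share was 96.4%, so the count is near that of any gene called there, and the difference between tissues was not tested.

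Mitochondrial chaperones and proteases, the machinery that folds and clears proteins inside the organelle, rose in 6 of 14 cases in rosettes and 11 of 14 in seedlings, against 7.81% and 8.40% of all tested loci called higher. None fell past the threshold, against 8.94% and 8.14% called lower, and 1 was lower in rosettes at an unadjusted p under 0.05, the protease gene FTSH10 (log2 ratio -0.48, p = 0.0435 in the authors' deposited table). In rosettes 11 of the 14 ratios were above 0, and in seedlings 13. Their median log2 ratio was 0.55 in rosettes and 0.70 in seedlings of the authors' deposited tables, against 0.012 and 0.010 over all tested loci. In rosettes the Hsp70 gene mtHsc70-1 (log2 ratio 1.66), the protease gene LON1 (1.496), the Hsp90 gene HSP89.1 (0.83) and the co-chaperonin gene CPN10 (0.78) had the largest rises in the authors' deposited table. In seedlings these were LON1 (1.20), mtHsc70-1 (0.82), the prohibitin gene PHB3 (0.80) and HSP89.1 (0.78), all at q = 0.000768 in the authors' deposited table. All 6 genes called in rosettes were among the 11 of 14 called in seedlings, so much of this overlap follows from the high count there. Most of these rises were under 2-fold: at least 2-fold were 2 in rosettes and 1 in seedlings.

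Other regulators were read against the shares over all tested loci. Among 9 tested membrane-tethered NAC genes of 11, 2 rose and 1 fell in rosettes, against 7.81% higher and 8.94% lower over all tested loci. In seedlings 2 rose and 0 fell, the 0 holding at an unadjusted p under 0.05 too, against 8.40% higher and 8.14% lower over all tested loci. Their median log2 ratios were -0.03 in rosettes and 0.09 in seedlings, and lists this short say little against those shares. NAC053 rose in both, by log2 ratios of 0.81 (q = 0.00164) and 0.60 (q = 0.00141), in the authors' deposited tables. NAC016, which lies next to NAC017 and is its close relative, rose to 7.89 FPKM in dko rosettes, against 3.21 FPKM in WT rosettes (q = 0.000899 in the authors' deposited table), and had a log2 ratio of 0.75 in seedlings (q = 0.0769). NAC089 fell in rosettes (log2 ratio -0.87, q = 0.00646) and NAC091 rose in seedlings (0.36, q = 0.0431), in the authors' deposited tables. RCD1, a nuclear protein that binds and restrains NAC013 and NAC017, was at 77.6 FPKM in dko rosettes and 75.8 FPKM in WT rosettes (q = 0.953 in the authors' deposited table). In seedlings RCD1 was at 39.0 FPKM in the dko and 45.7 FPKM in WT (q = 0.239 in the authors' deposited table). Among the 11 retrograde regulators, 9 of them tested and RCD1 included, 0 were higher at the threshold in either tissue, and at an unadjusted p under 0.05 it was 1 in rosettes and 0 in seedlings, in the authors' deposited tables. With 7.81% and 8.40% of all tested loci called higher, a count of 0 among 9 is near the background. Their medians were 0.04 and -0.23. The RCD1 relative SRO1 (log2 ratio -0.58, q = 0.0442) and WRKY30 (-1.56, q = 0.0451) fell in rosettes, and WRKY22 (-0.44, q = 0.0244) fell in seedlings, in the authors' deposited tables. Over all tested loci 8.94% and 8.14% were called lower. At an unadjusted p under 0.05 in the authors' deposited tables, 2 of the 9 tested regulators were lower in rosettes and 3 in seedlings. At q 0.01, which calls fewer loci, 0 were lower in rosettes.

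Relatives of the 9 genes gave mixed values, in 4 short lists that are to be read against 16.8% of all tested loci called in rosettes and 16.5% in seedlings, so that 0 or 1 call is near the background. Of 12 other small heat shock protein genes 4 were tested in rosettes, where the cytosolic HSP17.6A-II (log2 ratio 3.26, q = 0.0265) and HSP17.6B (2.00, q = 0.00646) rose in the authors' deposited table. In WT rosettes they stood at only 0.308 and 0.821 FPKM, and with 1 FPKM added to both groups their log2 ratios were 1.60 and 1.23. HSP17.6A-II was not tested in seedlings. Of the 5 genes tested there 0 passed, also at an unadjusted p under 0.05. The median of the tested genes was 1.86 in rosettes, or 0.94 with 1 FPKM added, and -0.12 in seedlings. HSP26.5, annotated in the same HSP20-like family, was at 0.0715 FPKM in dko rosettes and 0.105 FPKM in WT rosettes, and was not tested. Of the MATE cluster, AT2G04070 was at 7.90 FPKM in dko rosettes, against 1.67 FPKM in WT rosettes (log2 ratio 2.24, q = 0.000899 in the authors' deposited table), the only one of 4 tested that passed. In seedlings AT2G04070 was not tested, at 0.465 FPKM in the dko and 0.270 FPKM in WT. Of the 4 genes of the cluster tested there 0 passed, or 1 at an unadjusted p under 0.05. The medians of the tested genes were 1.17 in rosettes and 0.34 in seedlings. Of 5 tested UGT74 relatives 0 passed in rosettes, also at an unadjusted p under 0.05, and in seedlings UGT74F2 and UGT74E1 fell (log2 ratios -0.69 and -0.68, q = 0.000768 and 0.0278 in the authors' deposited table). Their medians were -0.09 and -0.34. Of 7 relatives of OM66 and AT12CYS-2, 3 of 6 tested rose and 1 fell in rosettes, and 3 of 4 tested rose in seedlings, with medians of 0.48 and 0.56. The ATPase genes AT2G18193, named above, and AT5G17760 rose in both tissues, AT5G17760 by log2 ratios of 1.87 and 0.61 (q = 0.000899 and 0.00202) in the authors' deposited tables. AATP1, listed at 0 in WT rosettes, was at 4.53 FPKM in dko rosettes (q = 0.000899 in the authors' deposited table). AT3G50940, the gene that follows OM66 on the chromosome, fell to 0.788 FPKM in dko rosettes, against 2.65 FPKM in WT rosettes (q = 0.00455 in the authors' deposited table). AT12CYS-1 was at 157 FPKM in dko seedlings, against 110 FPKM in WT seedlings (log2 ratio 0.51, q = 0.000768 in the authors' deposited table), and at 157 and 113 FPKM in dko and WT rosettes (q = 0.111).

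**Figure D4:**
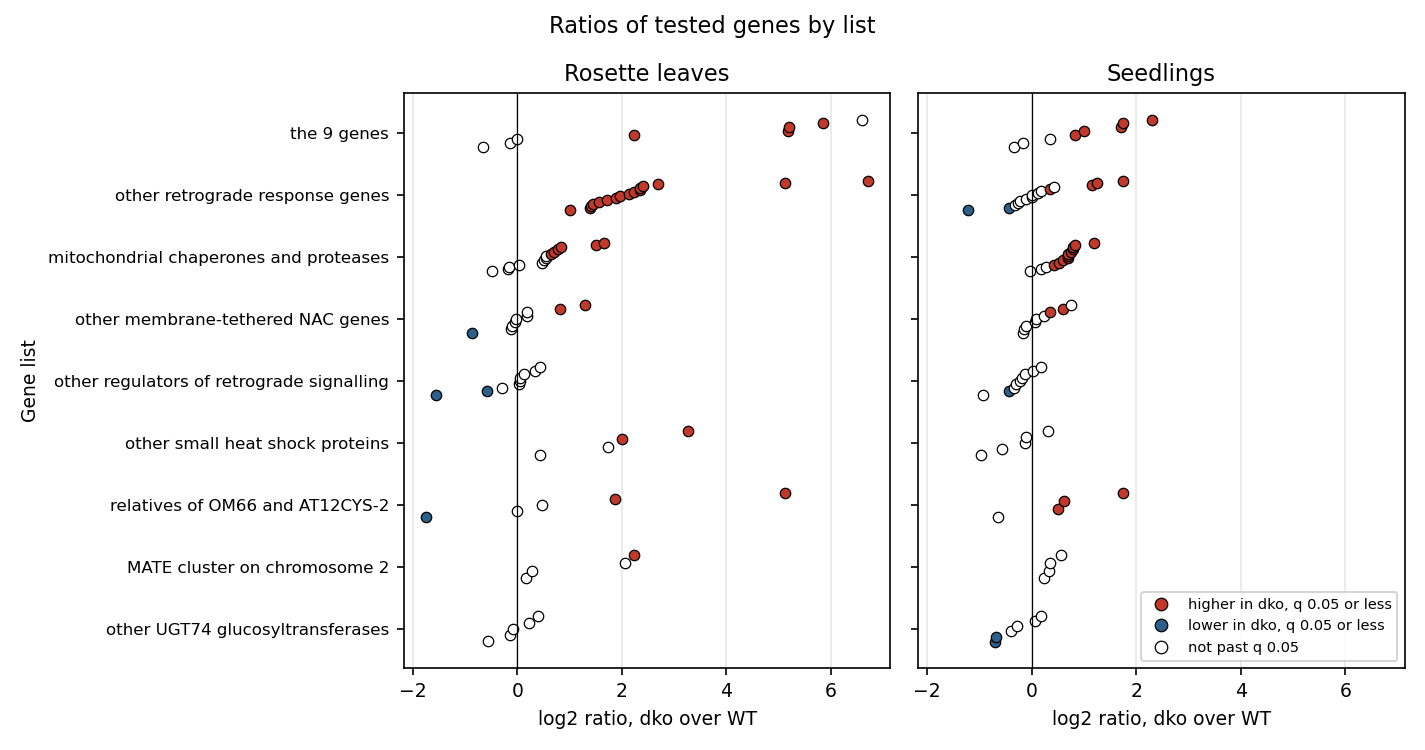
Log2 ratio of dko over WT for the tested genes of 9 lists in rosette leaves (left) and seedlings (right), 1 point per gene; red is higher and blue lower in the dko at q 0.05 or less, open is not past it, and height within a row only separates points. All 16 points of the other retrograde response genes are red in rosettes, against 4 red and 2 blue of 15 in seedlings, while 6 and 11 of 14 mitochondrial chaperones and proteases are red. HSP23.6 and AATP1, listed at 0 in WT rosettes, are not drawn there.

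The genes whose pair of ratios was most like those of UPOX and NAC013 were sought among 17177 loci with a test in both tissues, both groups above 0 and 1 FPKM or more in at least 1 group of each table, with the 9 genes and transposon loci left out. Likeness was the distance between the pairs on the log2 scale. Nearest to UPOX were AT2G18193 (distance 0.040), the NAC gene ANAC087 (0.373; log2 ratios 5.45 in rosettes and 1.503 in seedlings) and AT3G27630, annotated as similar to a cyclin-dependent kinase inhibitor (0.771; 5.73 and 1.22, neither past q 0.05 in the authors' deposited tables). Nearest to NAC013 were AT3G03060, annotated as a P-loop nucleoside triphosphate hydrolase (0.032), the Frigida-like gene AT5G27230 (0.066) and AT2G07738 (0.081), the last with q = 0.0402 in rosettes and q = 0.0678, not past the threshold, in seedlings of the authors' deposited tables. AT3G03060 was at 4.24 FPKM in dko rosettes, against 0.921 FPKM in WT rosettes, and at 8.37 FPKM in dko seedlings, against 4.11 FPKM in WT seedlings. The level of AT5G27230 was low, with 1.36 FPKM in dko and 0.282 FPKM in WT rosettes, and 1.36 and 0.701 FPKM in dko and WT seedlings.

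The loci on either side of the 9 genes were listed to show what lies beside them. Of 18 such loci 13 were tested in rosettes, with 2 higher and 2 lower in the authors' deposited table, and 12 in seedlings, with 0 higher and 1 lower. Over all tested loci 7.81% were higher and 8.94% lower in rosettes, and 8.40% and 8.14% in seedlings, so these counts are near the background. At an unadjusted p under 0.05, 3 neighbours were higher and 2 lower in seedlings. Those higher in rosettes were NAC016, before NAC017, and the glycosyl hydrolase gene AT1G32860, before NAC013 (log2 ratio 2.09, q = 0.000899 in the authors' deposited table). Those lower were AT3G50940, after OM66, and the homeodomain-like gene AT2G21650, after UPOX, which was at 2.43 FPKM in dko rosettes, against 27.1 FPKM in WT rosettes (q = 0.000899 in the authors' deposited table). Neither neighbour of HSP23.5, at distances of 255 and 431 bp, passed, with ratios between -0.11 and 0.30 in both tissues of the authors' deposited tables.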

How the data were processed

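RNA-seq of total RNA, made with a stranded kit that removes ribosomal RNA per the labels' protocols, was deposited as 2 tables, 1 per tissue. Bowtie2, TopHat2, Cufflinks and Cuffdiff, each listed as version 2.2.0, and the TAIR10 build are named in the submitters' processing notes. Annotation, normalisation setting and strand use are not stated there. The design text also names light treatments, which were not analysed here. The FPKM values deposited by the authors are 1 per locus and group, pooled over replicates and scaled within a table. Each table also gives, as deposited by the authors from Cuffdiff, a log2 ratio (dko over WT), a p-value, a q-value and a test score that was not used. A call is q of 0.05 or less over all tested loci of a table. The labels do not say whether replicates were separate plants, so these p-values may measure technical spread.

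The 9 genes and all lists were chosen with earlier results of these data known. Named are the 9 genes, both targeted genes, up to 4 called members of each list per tissue with the largest ratios, every called regulator and RCD1, 3 loci of most similar pattern to UPOX and to NAC013, and the neighbours of the 9 genes. AOX1A and SOT12 in seedlings, HSP26.5, AT1G32880, FTSH10 and NAC016 in seedlings were named after their values were seen.

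Promoters, exons and transcripts come from the RefSeq annotation of TAIR10.1. Starts of the tables count from 0: after adding 1, 11506 equalled reference starts, against 135 without, and all nuclear spans lie within the reference chromosomes. Transcripts were aligned locally with Biopython 1.88. Scripts ran in Python 3.11.15 and were tested on simulated data. Alternatives were a stricter (0.01) and a looser (0.1) q, changes of 2-fold or more alone, a minimum of 1 FPKM, recentring, organelle loci left out, q recomputed, pseudocounts of 1 and 0.1 and another promoter window; 2 further ones were chosen after seeing the data.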

Additional observations from a re-analysis of the deposited data

Results flagged for a closer look

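GSTU24, a glutathione transferase, and SOT12, a sulfotransferase, were called in opposite directions in the 2 tissues. GSTU24 had a log2 ratio of 2.70 in rosettes, with 4.20 FPKM in the dko and 0.647 FPKM in WT, and of -1.21 in seedlings, with 1.79 FPKM in the dko and 4.15 FPKM in WT, in the authors' deposited tables. SOT12 had a log2 ratio of 1.72 in rosettes, with 37.7 FPKM in the dko and 11.5 FPKM in WT, and of -0.44 in seedlings, with 12.8 FPKM in the dko and 17.3 FPKM in WT, in the authors' deposited tables. The difference between tissues was not tested, since no values per replicate were at hand and the tables were scaled separately.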

How the results depend on the processing

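The counts of called genes among the 9 stayed within 1.5 times of the reported ones under every alternative run. Genes called higher in rosettes numbered 4 instead of 5 with the 1 FPKM minimum, which left out HSP23.6. In seedlings they numbered 4 instead of 5 with the 2-fold minimum, which left out OM66. The calls of these genes, each made in 1 tissue only, thus depend on the setting. None of the log2 ratios of the 9 genes changed sign with a pseudocount of 1 or 0.1 or after recentring. For other retrograde response genes, the count lower in seedlings was 1 instead of 2 at q 0.01, with a 2-fold minimum and without the 4 genes known earlier; without those genes 2 instead of 4 were higher in seedlings. With a 2-fold minimum, mitochondrial chaperones and proteases called higher numbered 2 in rosettes and 1 in seedlings. Over all the lists beside the 9 genes, calls lower in rosettes numbered 2 instead of 4 both at q 0.01 and with a 2-fold minimum. In seedlings calls lower numbered 2 at q 0.01 and 1 with a 2-fold minimum, and calls higher 4 with a 2-fold minimum. These alternatives call fewer loci by construction. Shares over all tested loci were not taken at these settings, so nothing is read from these counts. Recentring moved the seedling median of other retrograde response genes to -0.00048. The motif was in 391 of all windows with A or C before the last G. Without the 50 bases after the RefSeq start, 5 of the 9 windows held it. So did 2 of 18 windows of other retrograde response genes, against 6 with those bases. In the deposited spans the matches of AT12CYS-2 and UGT74E2 lie upstream of the start, so these counts depend on the annotation. Leaving out replicates was not run and no paired analysis was possible because the tables hold 1 pooled value per group. Unknown depth limits the genes under 1 FPKM most, HSP23.6 and the WT rosette values of HSP23.5, UGT74E2 and AT2G04050 among them.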
